A study of Mus musculus with 18 samples.

Results

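The genes examined here encode the transcription factor Nrf2 (*Nfe2l2*), its CNC relatives *Nfe2l1* and *Nfe2l3*, the inhibitor *Keap1* and its ubiquitin ligase scaffold *Cul3*, the Bach repressors *Bach1* and *Bach2*, and the small Maf partners *Mafg*, *Maff* and *Mafk*. These 10 genes were chosen by name, with earlier results of these data known, and all 10 were found among the 47729 genes of the count table. RNA came from eyecups of *rd1* mice at P40, from which the retina had been taken off and which were labelled as retinal pigment epithelium (RPE). The strain carries a loss-of-function *Pde6b* mutation on an FVB/N background, and its rods die early in life. In the group called Best1-Nrf2, adeno-associated virus (AAV) brought the human Nrf2 cDNA into the eye under the human Best1 promoter, which is active in the RPE, together with AAV-Best1-GFP. In the control group, the fellow eye of the same mouse had received AAV-Best1-GFP alone, so both groups carried the GFP vector and, by the labels, the *rd1* mutation. There were 9 mice and 18 libraries by the labels, which place every library in *rd1*. The methods of the study name fewer *rd1* pairs at this age and also wild-type CD1 pairs, and the numbers of both add up to the number of pairs labelled *rd1* here. Some of these mice may therefore be CD1, in which case every value below would mix genotypes. The labels were followed. The comparison between the eyes of a mouse asked whether the partners and inhibitors of Nrf2 change when Nrf2 is supplied to the RPE.

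Nrf2 is a basic leucine zipper factor of the cap'n'collar (CNC) family, and it binds antioxidant response elements only as a heterodimer with a small Maf protein. In unstressed cells Keap1 hands Nrf2 to the Cul3 ligase for destruction by the proteasome, and oxidants or electrophiles that modify Keap1 let Nrf2 build up. Bach1 and Bach2 pair with the same small Mafs on the same elements but repress them, and small Mafs paired with each other also repress. Much of this control acts on the proteins, which RNA counts do not show. In the RPE, which lies next to the choroidal blood supply and is rich in oxygen, Nrf2 drives glutathione synthesis and detoxification.

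The response element may also stand in the promoters of the regulators themselves, so the 300 bases around each annotated start (250 before and 50 after) were searched for its core, TGACNNNGC, on both strands. RefSeq (GRCm38.p6) gave 16 such windows for the 10 genes. The core was found in 1 window each of 4 genes, *Nfe2l2*, *Mafg*, *Maff* and *Mafk*. The other 6 genes, and the other 2 windows of *Maff*, did not hold these letters. Among all 32851 windows of that source, 12.4% held the core, and 13.99% of its 27025 genes had it in a window. Its presence is thus not rare, and a match is not a binding site. Whether the 10 genes hold it more often than other genes was not tested. The 4 windows are printed 5′ to 3′ on the strand of the gene, with the core in capitals, because they are the windows of the 10 genes that hold it, among them all 3 small Mafs. They lie at chr2:75704614-75704913 (minus strand) for *Nfe2l2*, at chr11:120633498-120633797 (minus strand) for *Mafg*, at chr15:79346371-79346670 (plus strand) for *Maff* and at chr5:139791286-139791585 (plus strand) for *Mafk*.
Nfe2l2: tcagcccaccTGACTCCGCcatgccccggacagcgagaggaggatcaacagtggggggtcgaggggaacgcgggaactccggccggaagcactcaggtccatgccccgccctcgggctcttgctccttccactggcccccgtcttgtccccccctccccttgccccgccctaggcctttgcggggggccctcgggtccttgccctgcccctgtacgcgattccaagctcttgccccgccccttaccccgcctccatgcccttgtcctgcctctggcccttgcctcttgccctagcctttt
Mafg: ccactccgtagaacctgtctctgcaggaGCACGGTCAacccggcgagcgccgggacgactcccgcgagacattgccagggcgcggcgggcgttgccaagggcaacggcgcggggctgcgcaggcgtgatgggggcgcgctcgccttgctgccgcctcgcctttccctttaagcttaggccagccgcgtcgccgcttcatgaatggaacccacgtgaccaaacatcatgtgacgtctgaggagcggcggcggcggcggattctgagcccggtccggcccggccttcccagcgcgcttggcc
Maff: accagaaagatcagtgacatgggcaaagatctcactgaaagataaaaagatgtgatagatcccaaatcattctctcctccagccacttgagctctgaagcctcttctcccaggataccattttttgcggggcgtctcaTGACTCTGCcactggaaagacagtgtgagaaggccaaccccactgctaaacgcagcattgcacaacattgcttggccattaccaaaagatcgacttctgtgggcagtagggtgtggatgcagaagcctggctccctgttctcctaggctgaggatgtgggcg
Mafk: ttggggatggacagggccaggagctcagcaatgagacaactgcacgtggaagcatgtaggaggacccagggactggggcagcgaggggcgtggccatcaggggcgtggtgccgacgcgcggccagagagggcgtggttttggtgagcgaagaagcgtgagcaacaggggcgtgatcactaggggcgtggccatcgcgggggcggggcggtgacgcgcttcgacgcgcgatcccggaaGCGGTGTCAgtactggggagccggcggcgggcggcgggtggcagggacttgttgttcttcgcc
The core began 240 bases before the start in *Nfe2l2*, 222 in *Mafg*, 112 in *Maff* and 13 in *Mafk*. It read forward in *Nfe2l2* and *Maff* and on the opposite strand in *Mafg* and *Mafk*.

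Library totals ranged from 18956748 to 44054836 counts in control and from 32839893 to 49598700 in Best1-Nrf2 eyes. All 13 RPE markers tested were detected, and their summed level was 13152 to 68396 counts per 1000000 (CPM, scaled by TMM) in control (median, 40410) and 15704 to 78406 CPM in Best1-Nrf2 eyes (median, 20256). The sum was higher in the treated eye of 4 of 9 mice. The median log2 fold change of these markers was -0.56. Markers of other cells moved between the groups. All 9 cone markers and 3 of 8 tested rod markers fell, 8 of 14 macrophage and microglia markers rose, and 5 of 13 RPE markers fell. Of the fibroblast and sclera markers 1 of 8 rose, and in edgeR no Müller glia, inner retina, endothelial or blood cell marker passed. The summed Müller glia markers were still higher in the treated eye of 9 of 9 mice (medians, 1162 CPM in control and 1540 CPM in treated eyes). The fibroblast and sclera sum was higher in 8 of 9 mice and the blood cell sum in 7 of 9. Those of inner retina and endothelium were higher in 4 of 9 each. The summed cone markers were 256 to 2038 CPM in control and 28.2 to 288 CPM in Best1-Nrf2 eyes, and without the treated eye of mouse 6 the latter reached only 57.5 CPM, so that the groups were then apart. The summed rod markers were 72.4 to 664 and 6.26 to 139 CPM, and the summed macrophage and microglia markers were 138 to 493 and 140 to 606 CPM. In each of these lists no marker was at 0 in every library. Control replicate 8 stood apart, as it had the smallest total of all libraries (18956748 counts). It had the lowest summed RPE, macrophage and microglia, Müller glia and endothelial markers of its group. This library held the highest control level of 5 of the 10 genes. Among Best1-Nrf2 eyes, that of mouse 6 held the most inner retina RNA (summed markers 1774 CPM, against 879 in the next). It also held the most cone RNA (288 CPM, against 57.5 in the next) and rod RNA (139 CPM, against 41.7), mouse 6 was the 1 mouse with more cone RNA in the treated than in the control eye, and this eye was the lowest of its group for 5 of the 10 genes. Values without mouse 6 or 8 are given beside several of the changes. In bulk RNA, a change in the number of cells of a type and a change in RNA per cell cannot be told apart.

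Of the 10 genes, *Nfe2l2*, whose counts include the delivered cDNA as far as its reads match, and *Mafg* rose in the Best1-Nrf2 eyes and none fell. *Mafg* was 2.29-fold higher, and *Keap1* was 1.60-fold higher without passing the test. The test was the quasi-likelihood F test of edgeR with mouse as a block, with p values adjusted over all 18958 genes tested and a threshold of 0.05. For comparison, 4.25% of all tested genes passed, 3.12% upwards and 1.13% downwards. Since 1 of these 2 genes is the one that was delivered, the count for the other 9 was 1. At an unadjusted p under 0.05, *Keap1* was added, and no gene was lower (12.8% of all tested genes passed that limit in either direction). DESeq2 and limma voom each called 3 of the 10, *Keap1* being the third, and none lower. The estimate was above 0 for 9 of the 10 genes, with a median log2 fold change of 0.25, against -0.03 over all tested genes. Both calls were lost when the model also held a covariate for photoreceptor markers or one for macrophage markers, under which 42 and 21 of all tested genes still rose. The estimates for *Nfe2l2* were then 1.89 (SE 0.46) and 2.85 (SE 0.48), against 2.29 (SE 0.21) without a covariate, and those for *Mafg* 0.34 (SE 0.46) and 0.95 (SE 0.56), against 1.20 (SE 0.23). The standard errors were thus larger under both, while the estimate of *Mafg* was far smaller only under the photoreceptor covariate. Because the cone markers nearly separated the groups, the photoreceptor covariate and the treatment cannot be told apart. Without mice 6 and 8, an alternative chosen after seeing the data, 4 of the 10 passed, as *Keap1* and *Bach1* then joined.

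**Figure D1:**
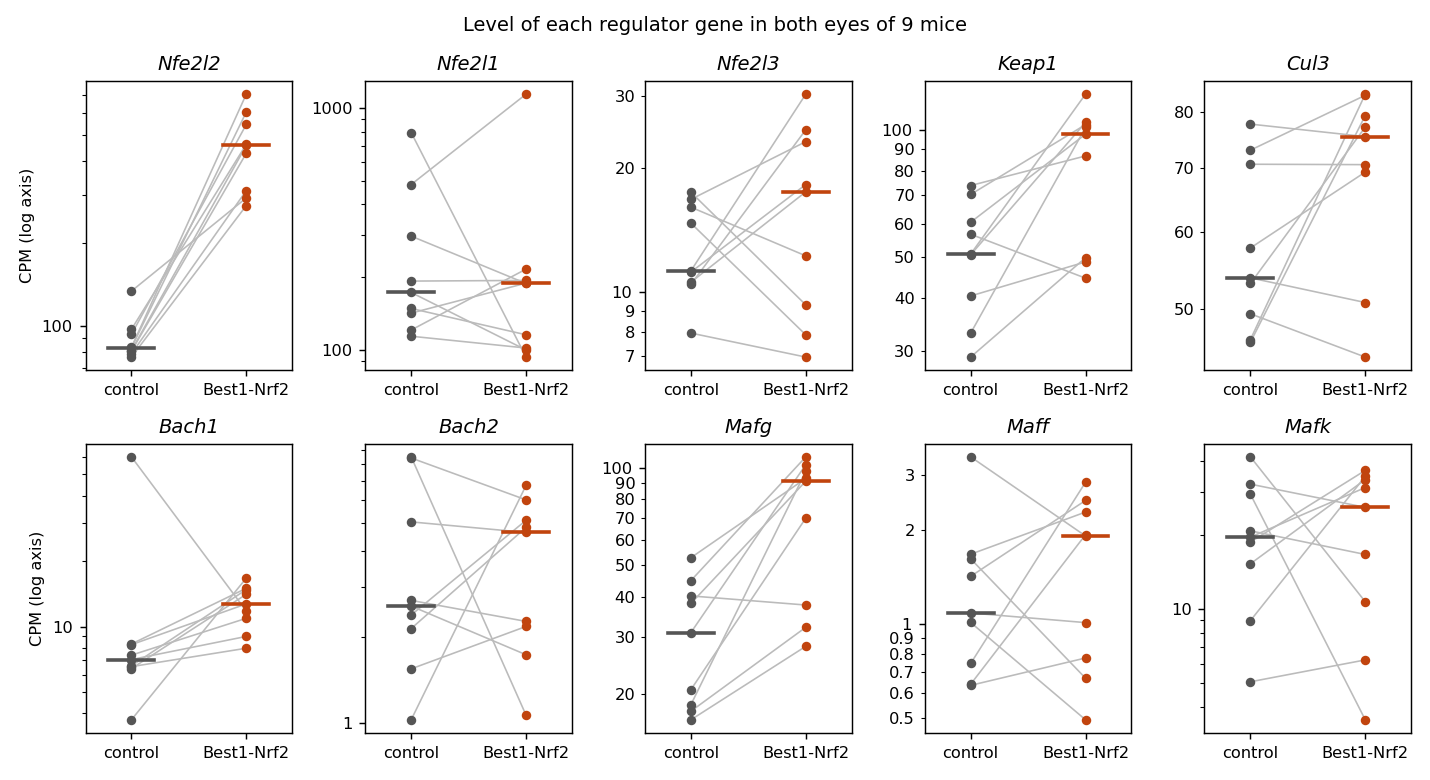
Level of the 10 regulator genes in CPM (log axis) in the control and Best1-Nrf2 eye of 9 mice. Each point is a library, lines join the eyes of a mouse, and bars are medians. Only for *Nfe2l2* do the groups not overlap, and *Mafg*, *Keap1* and *Bach1* are each higher in the treated eye of 8 of 9 mice.

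*Nfe2l2* (ENSMUSG00000015839, GRCm38 chromosome 2, 75675513 to 75704641, minus strand) is the mouse gene for the factor that was delivered. It stood at 76.7 CPM in the lowest control eye, 83.0 CPM at the median and 134 CPM in the highest. In the Best1-Nrf2 eyes these values were 275, 457 and 704 CPM. Every treated library was above every control library, which was so, in either direction, for 1.17% of all tested genes. The estimate on the log2 scale was 2.29 (SE 0.21, adjusted p = 6.21e-05), or 4.91-fold. The difference between eyes ranged from 1.13 in mouse 8 to 3.08 in mouse 4 on the log2 scale, and the estimate was 2.20 to 2.44 when 1 mouse was left out. Mouse 8 combined the highest control eye with one of the 3 lowest treated eyes. None of the 31-base words of the mouse transcripts occurred in another annotated mouse gene. Reads of the human cDNA that matched the mouse gene cannot be parted from reads of the endogenous transcript, so whether endogenous *Nfe2l2* changed was not measured. With the photoreceptor covariate the change was 1.89 (adjusted p = 0.0724), and with the macrophage covariate 2.85 (adjusted p = 0.0601).

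*Nfe2l1* (ENSMUSG00000038615, chromosome 11, 96817414 to 96829968) encodes Nrf1, a membrane-bound CNC factor that drives proteasome genes. Its level ran from 114 to 794 CPM in control eyes (median, 172) and from 93.1 to 1146 CPM in Best1-Nrf2 eyes (median, 188). Of the treated eyes, 1 was above every control and 3 were below every control, and the gene was higher in the treated eye of 4 of 9 mice. Its log2 change was -0.23 (SE 0.37, 95% interval -1.03 to 0.57, adjusted p = 0.8995). Single eyes stood out. Both eyes of mouse 3 were high, at 484 CPM in the control and 1146 CPM in the treated eye, and control replicate 8 was at 794 CPM. Without mouse 8 the change was 0.07.

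*Nfe2l3* (ENSMUSG00000029832, chromosome 6, 51432670 to 51458768) encodes Nrf3, a CNC factor held at the endoplasmic reticulum. It was at 7.94 to 17.5 CPM in control eyes (median, 11.3) and at 6.94 to 30.3 CPM in Best1-Nrf2 eyes (median, 17.5). The treated eyes spread to both sides of the controls, as 5 of them lay above the highest control and 2 below the lowest. The log2 fold change was 0.25 (SE 0.28, 95% interval -0.36 to 0.85, adjusted p = 0.832). It turned to -1.05 with the photoreceptor covariate (adjusted p = 0.247) and was 0.39 without mouse 6.

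*Keap1* (ENSMUSG00000003308, chromosome 9, 21229730 to 21239361), which encodes the oxidant sensor and substrate adaptor for Nrf2, was at 29.1 to 73.8 CPM in control eyes (median, 50.9). In Best1-Nrf2 eyes it was at 44.6 to 121 CPM (median, 97.5). In the treated group, 6 eyes were above the highest control, whereas 3 lay within the control range. The estimate on the log2 scale was 0.67 (SE 0.20, 95% interval 0.25 to 1.10), with an unadjusted p of 0.00502 and an adjusted p of 0.0942, so *Keap1* did not pass over all genes in the paired edgeR model. It was higher in the treated eye of 8 of 9 mice. The exception was mouse 6 (-0.34), and without it *Keap1* passed (0.80, adjusted p = 0.0204). It also passed with DESeq2 (0.67, adjusted p = 0.0247) and with limma voom (0.77, adjusted p = 0.00918). With the photoreceptor covariate the estimate was 0.03 (SE 0.41, adjusted p = 0.981), and with the macrophage covariate 0.61 (SE 0.48, adjusted p = 1.0). Of its 31-base words, 9.02% also occur in *Gm16754*, and the sources used here do not say whether counting used strand, so some of its counts may belong there.

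*Cul3* (ENSMUSG00000004364, chromosome 1, 80264923 to 80340480) encodes the cullin on which the Keap1 ligase is built. Its level was 46.2 to 77.7 CPM in control eyes (median, 53.8) and 44.6 to 83.5 CPM in Best1-Nrf2 eyes (median, 75.4). It was higher in the treated eye of 5 of 9 mice. The log2 fold change of 0.26 had the smallest standard error of the 10 (SE 0.15, 95% interval -0.07 to 0.59, adjusted p = 0.553).

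**Figure D2:**
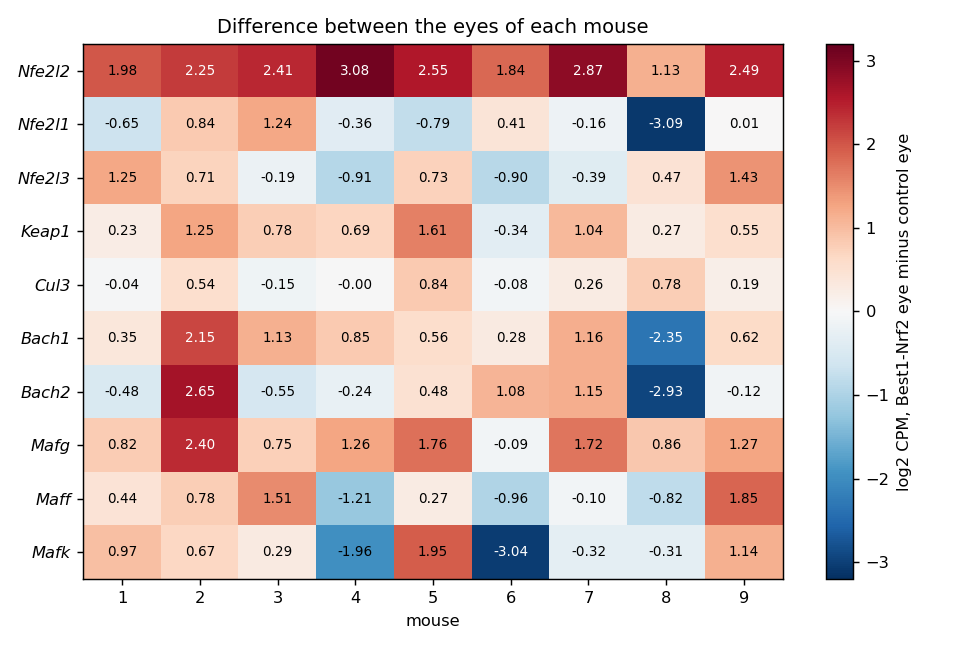
Difference in log2 CPM between the Best1-Nrf2 and the control eye for each of 10 genes (rows) in each of 9 mice (columns), with red for higher in the treated eye. The *Nfe2l2* row is positive throughout, and the negative cells of *Keap1* and *Mafg* are in mouse 6 and that of *Bach1* in mouse 8.

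*Bach1* (ENSMUSG00000025612, chromosome 16, 87698945 to 87733346) encodes the haem-sensitive repressor that competes with Nrf2 at response elements, most of all at the haem oxygenase gene *Hmox1*. Its level was 3.73 to 60.3 CPM in control eyes (median, 7.05) and 7.95 to 16.7 CPM in Best1-Nrf2 eyes (median, 12.7). The highest value was that of control replicate 8, while the other 8 control eyes were at 8.31 CPM or less. The gene was higher in the treated eye of 8 of 9 mice, the exception being mouse 8 (-2.35). The log2 fold change was 0.59 (SE 0.36, 95% interval -0.20 to 1.38, adjusted p = 0.583). It was 0.89 without mouse 8 (adjusted p = 0.0606), 0.97 without mice 6 and 8 (adjusted p = 0.0377) and -0.02 without the replicate block (adjusted p = 0.999).

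*Bach2* (ENSMUSG00000040270, chromosome 4, 32238804 to 32586108), best known as a repressor in lymphocytes, was low. It was at 1.03 to 8.49 CPM in control and 1.07 to 6.75 CPM in Best1-Nrf2 eyes, with medians of 2.56 and 4.63. It was higher in the treated eye of 4 of 9 mice, and the differences ran from -2.93 in mouse 8 to 2.65 in mouse 2. The estimate on the log2 scale was 0.15 (SE 0.48, 95% interval -0.90 to 1.20, adjusted p = 0.955), which became 0.48 when mouse 8 was left out and -0.14 when mouse 2 was. Of its 31-base words 6.37% occur elsewhere, first of all in its antisense gene *Bach2os*.

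*Mafg* (ENSMUSG00000051510, chromosome 11, 120625117 to 120633600) encodes a small Maf, which has a DNA-binding and zipper region but no activation domain. Its level was 16.6 CPM in the lowest control eye, 30.97 CPM at the median and 52.8 CPM in the highest. In Best1-Nrf2 eyes it was 28.1, 91.2 and 108 CPM. Of the treated eyes, 6 were above every control, and the other 3 lay within the control range. *Mafg* rose by 1.20 on the log2 scale (SE 0.23, 95% interval 0.69 to 1.70, adjusted p = 0.0101), or 2.29-fold, and it was higher in the treated eye of 8 of 9 mice. The exception was again mouse 6, with a difference of -0.09. The largest difference was 2.40, in mouse 2. *Mafg* passed without each mouse in turn (1.05 to 1.35) and without the replicate block (1.24, adjusted p = 0.0259). It did not pass with the photoreceptor covariate (0.34, adjusted p = 0.728) or the macrophage covariate (0.95, adjusted p = 1.0). Few of its words (1.68%) are shared, with its neighbour *Sirt7*.

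The 3 Best1-Nrf2 eyes within the control range of *Mafg* were those of mice 3 (28.1 CPM), 6 (37.7 CPM) and 8 (32.1 CPM). The 3 that were within the control range of *Keap1* were the same, at 49.9, 44.6 and 48.8 CPM. These 3 libraries also had the highest summed RPE markers of the treated group, at 78406, 52799 and 26038 CPM, whereas the other 6 were at 24641 CPM or less. This was not particular to RPE markers. The same 3 libraries were the highest treated ones for summed rod markers (24.1, 139 and 41.7 CPM) and blood cell markers (3935, 2702 and 1296 CPM). Their *Nfe2l2* levels were 428, 275 and 294 CPM. The part of the share of RPE or of any other cell type in the response of *Mafg* and *Keap1* was not tested.

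The other small Mafs, which share the dimer partners of *Mafg*, gave no call. *Mafk* (ENSMUSG00000018143, chromosome 5, 139791513 to 139802653) was at 5.05 to 41.8 CPM in control eyes (median, 19.7) and 3.54 to 36.8 CPM in Best1-Nrf2 eyes (median, 25.995). Its differences went from -3.04 in mouse 6 to 1.95 in mouse 5, and it was higher in the treated eye of 5 of 9 mice. Its log2 change was 0.01 (SE 0.47, 95% interval -1.01 to 1.03, adjusted p = 0.998), a value that took either sign among the settings tried and was 0.33 without mouse 6 and 0.43 without mice 6 and 8. *Maff* (ENSMUSG00000042622, chromosome 15, 79346621 to 79359076), which responds to stress and growth signals in many tissues, had only 16 to 74 counts per control library and 17 to 131 per Best1-Nrf2 library. That was 0.635 to 3.42 CPM (median, 1.08) and 0.4931 to 2.84 CPM (median, 1.91). It was higher in the treated eye of 5 of 9 mice, with a log2 fold change of 0.20 (SE 0.40, 95% interval -0.67 to 1.07, adjusted p = 0.925), which was 0.53 without mice 6 and 8. The intervals of both genes hold changes in either direction. Of the words of *Mafk*, 3.60% also occur in its neighbour *Tmem184a*.

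**Figure D3:**
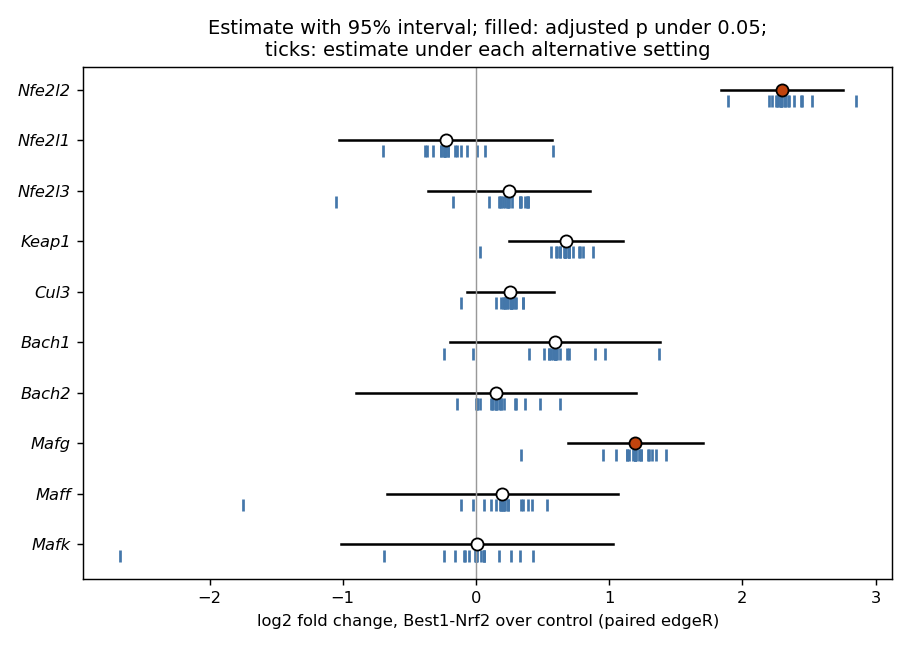
Log2 fold change of each gene, Best1-Nrf2 over control, in the paired edgeR model with its 95% interval. Filled circles passed at an adjusted p under 0.05, and ticks give the estimate under each alternative setting. *Nfe2l2* and *Mafg* are filled, the interval of *Keap1* lies above 0, and the ticks of *Mafk* reach -2.67.

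To compare genes with each other, CPM were divided by the length of all exons of a gene in kilobases. In control eyes the order from high to low was *Nfe2l1* (50.3 ± 41.8 CPM per kilobase), *Nfe2l2* (23.6 ± 4.69), *Cul3* (12.04 ± 2.47), *Keap1* (11.02 ± 3.30), *Mafg* (5.55 ± 2.40), *Mafk* (5.47 ± 2.96), *Nfe2l3* (4.35 ± 1.14), *Bach1* (2.06 ± 2.89), *Maff* (0.524 ± 0.335) and *Bach2* (0.383 ± 0.287; SD, n = 9 each). The steps that held in 9 of 9 control libraries were those from *Nfe2l2* to *Cul3*, from *Keap1* to *Mafg* and from *Bach1* to *Maff*. *Mafg* and *Mafk* could not be ordered (5 of 9 libraries), and *Mafk* and *Nfe2l3* held their order in 6 of 9, *Maff* and *Bach2* in 6 of 9, and *Nfe2l1* and *Nfe2l2* in 7 of 9.

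In Best1-Nrf2 eyes *Nfe2l2* led the order per kilobase, at 119 ± 38.7 CPM per kilobase (SD, n = 9), and was above *Nfe2l1* in 8 of 9 libraries. It made up 35.0% ± 11.2 of the summed level of the 3 CNC genes in control and 72.1% ± 16.5 in treated eyes (SD, n = 9 each), and its share was larger in the treated eye of 9 of 9 mice. *Mafg* made up 49.9% ± 14.7 of the 3 small Mafs in control and 68.2% ± 13.6 in treated eyes, and its share was larger in 7 of 9 mice. The summed small Maf level was 11.5 ± 4.38 CPM per kilobase in control and 19.4 ± 8.17 in treated eyes, and it was higher in 8 of 9 mice. The level of *Nfe2l2* was 2.44 ± 1.24 times that of the small Mafs together in control eyes and 7.28 ± 3.74 times in treated eyes. Against *Keap1*, it went from 2.39 ± 1.02 to 7.01 ± 1.98 times. These ratios are of RNA per length and carry the human cDNA in *Nfe2l2*, so they are descriptions without a test.

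**Figure D4:**
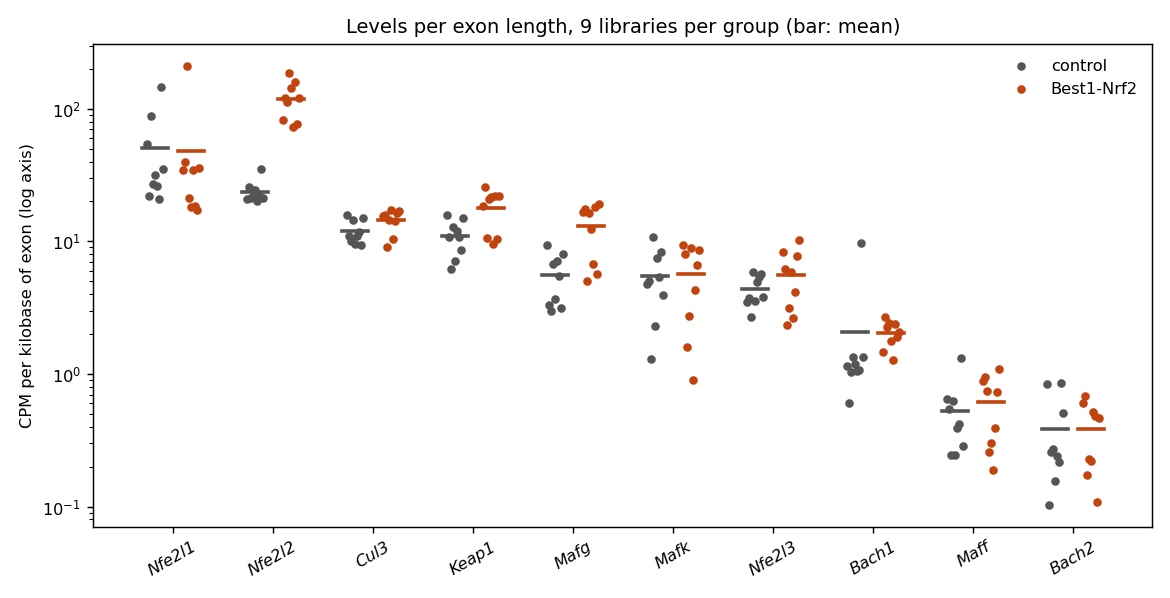
CPM per kilobase of exon (log axis) of each gene in 9 control (grey) and 9 Best1-Nrf2 libraries (orange), ordered by the control mean, with bars for means. *Nfe2l2* moves from the second place to the first, and *Bach1* has 1 control library far above the others.

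Whether the other genes moved with the size of the *Nfe2l2* difference was examined across the 9 mice. Of 9 relations, none passed after adjustment over the 9. The strongest was that of *Bach1* (Pearson r = 0.73, exact permutation p = 0.0389, adjusted p = 0.350; Spearman rho = 0.60, exact permutation p = 0.0968, adjusted p = 0.436). It rested on mice 4 and 8, which had the most extreme *Nfe2l2* differences, as r was 0.31 without them (exact permutation p = 0.496). For *Keap1* r was 0.54 (exact permutation p = 0.127, adjusted p = 0.403) and rho 0.60 (exact permutation p = 0.0968, adjusted p = 0.436), and for *Mafg* r was 0.45 (exact permutation p = 0.226, adjusted p = 0.407) and rho 0.48 (exact permutation p = 0.194, adjusted p = 0.581). Without mice 4 and 8 these r were 0.72 and 0.61 (exact permutation p = 0.0669 and 0.144).

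The differences of the other 9 genes were also compared with each other, over 36 pairs, a set of relations added after the values were seen. By Pearson's r none passed after adjustment over the 36, and by Spearman's rho 1 did, that of *Nfe2l3* and *Mafk*. For *Keap1* and *Mafg* the values did not pass (Pearson r = 0.88, exact permutation p = 0.00290, adjusted p = 0.0522; Spearman rho = 0.80, exact permutation p = 0.0138, adjusted p = 0.207). Without mice 5 and 6, r was 0.84 (exact permutation p = 0.0153). *Nfe2l3* and *Mafk* passed by rank only (r = 0.84, exact permutation p = 0.00283, adjusted p = 0.0522; rho = 0.92, exact permutation p = 0.00131, adjusted p = 0.0472), with an r of 0.65 without mice 4 and 6 (exact permutation p = 0.118). The largest r was that of *Nfe2l1* and *Bach1* (r = 0.89, exact permutation p = 0.0103, adjusted p = 0.0929; rho = 0.60, exact permutation p = 0.0968, adjusted p = 0.478), and it was 0.61 without mice 3 and 8 (exact permutation p = 0.149). The relation of *Bach1* and *Bach2* (r = 0.86, exact permutation p = 0.00967, adjusted p = 0.0929; rho = 0.52, exact permutation p = 0.162, adjusted p = 0.485) rested on mice 2 and 8, without which r was -0.06. Both values of each pair come from the same libraries, so anything that sets a library apart enters both.

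The genes whose levels were most like those of the 2 risen regulators over the 18 libraries were then listed, among the 12379 whose average log2 CPM reached 2. For *Nfe2l2* these were *Bco1*, which cleaves carotenoids (Pearson r = 0.983), *Gstm1*, a glutathione transferase (0.982), and *Fbxo2*, a ubiquitin ligase subunit (0.981). After the group means were removed, the r were 0.784, 0.770 and 0.760. For *Mafg* they were *Entpd5*, a nucleotidase of the endoplasmic reticulum (0.968), *Slc35e3* (0.965) and the kinase gene *Map3k21* (0.963), with an r of 0.948, 0.944 and 0.944 after the group means were removed. All these values share libraries and scaling, and the genes were picked on the same libraries.

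Proteins that set the lifetime of Nrf2 or Bach1 were followed in a list of 25 genes, all of which were tested. Of these, 2 rose (*Cdkn1a* and *Sqstm1*), 1 fell (*Amer1*) and 22 did not pass, with a median log2 fold change of 0.09 (-0.14 with the photoreceptor covariate). Of all tested genes, 4.25% passed in either direction. *Sqstm1*, the autophagy receptor p62 that binds Keap1, was at 320 to 587 CPM in control and 547 to 1368 CPM in Best1-Nrf2 eyes. It rose by 0.91 (SE 0.18, adjusted p = 0.0120, higher in 9 of 9 mice). Among all tested genes, 3.12% were higher in the treated eye of all 9 mice. *Cdkn1a*, the cell cycle inhibitor p21, which can shield Nrf2 from Keap1, was at 29.5 to 263 CPM in control and 119 to 546 CPM in treated eyes. It rose by 1.23 (SE 0.22, adjusted p = 0.00698, higher in 9 of 9 mice). *Amer1*, a scaffold of the β-catenin destruction complex that also binds Keap1, went the other way, from 30.2 to 67.7 CPM in control eyes to 22.6 to 31.8 CPM in treated eyes. It fell by 0.80 on the log2 scale (SE 0.14, adjusted p = 0.00435, lower in 9 of 9 mice). At an unadjusted p under 0.05, 5 of the 25 passed, against 12.8% of all tested genes. Of these 5, 3 had estimates above 0, and *Cops5*, a regulator of cullins, was at -0.38 (adjusted p = 0.289). The ligase components *Rbx1* (0.04, adjusted p = 0.980) and *Cul1* (-0.01, adjusted p = 0.989) had estimates near 0. With the photoreceptor and the macrophage covariate none of the 3 calls was kept, with larger standard errors throughout. The estimates were then 0.72 (SE 0.41) and 0.90 (SE 0.45) for *Sqstm1*, 1.04 (SE 0.52) and 1.58 (SE 0.53) for *Cdkn1a*, and -0.70 and -0.48 (SE 0.32 each) for *Amer1*. DESeq2 and limma voom each added *Sesn2*, a stress-induced protein that helps p62 degrade Keap1 (0.90 in edgeR, adjusted p = 0.113).

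Other leucine zipper factors that can meet the CNC or Maf proteins gave no call in edgeR. Of 14 listed, 11 were tested, and 3 of these had an unadjusted p under 0.05, *Fosl1* and *Atf3* with an estimate above 0 and *Fos* with one below 0. DESeq2 and limma voom each called 2, *Fosl1* and *Atf3*, both higher. The median log2 fold change was 0.06. It was 0.36 without mouse 6, -0.15 without mouse 9 and -0.98 with the photoreceptor covariate. The large Maf gene *Maf* did not pass (-0.06, adjusted p = 0.966), while *Mafa* and *Nrl* were too low to be tested.

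None of 10 coactivator and corepressor genes, such as *Crebbp* and *Ep300*, was called by edgeR, DESeq2 or limma voom, and none had an unadjusted p under 0.05 (median, -0.02, and -0.49 with the photoreceptor covariate). Of 9 genes that free or modify the Nrf1 protein, none was called by any of the 3 tools. *Ogt*, a sugar transferase that acts on it, had an unadjusted p of 0.0261 (log2 fold change, -0.44, adjusted p = 0.275). The 33 proteasome genes, which Nrf1 drives, had a median of 0.00, and of 0.35 with the photoreceptor covariate. None was called by the 3 tools, and 2 had an unadjusted p under 0.05 in edgeR, both with estimates above 0.

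Genes with response elements shared by Nrf2 and Bach1 were read out in a list of 12, 11 of which rose (median, 2.79). Of all tested genes 3.12% rose, and 3.12% were higher in the treated eye of all 9 mice. The list was chosen with earlier results of these data known. The paper had already reported a rise of *Gclc*, *Gclm*, *Slc7a11* and *Txnrd1*, so the count is a description and not independent. *Hmox1*, haem oxygenase and the classic Bach1 target, was at 27.0 to 39.6 CPM in control eyes and 220 to 1592 CPM in Best1-Nrf2 eyes. It rose by 4.50 on the log2 scale (SE 0.41, adjusted p = 5.50e-05, higher in 9 of 9 mice). *Nqo1*, a quinone reductase, rose by 2.02 (SE 0.20, adjusted p = 9.58e-05, higher in 9 of 9 mice), from 133 ± 25.7 to 552 ± 164 CPM (SD, n = 9 each). The haem transporter *Slc48a1* did not pass (0.46, adjusted p = 0.433).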

How the data were processed

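Poly(A) RNA of 18 eyecups was amplified with a low-input kit, sequenced in separate runs that the labels do not assign to libraries, and processed by the authors with bcbio-nextgen. Reads were aligned to mm10 with STAR using Ensembl transcripts and counted by featureCounts, and in parallel quantified with Salmon (0.8.1 in the submitters' processing notes). The deposited table holds estimated counts per Ensembl gene as whole numbers, not scaled between libraries, as inferred from identical values in near-identical genes. The table does not name its counter. No molecular identifiers are described. Symbols were found for 47224 of 47729 IDs. Coordinates and exon lengths are from GENCODE M21 (GRCm38).

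Genes passing filterByExpr were, in R 4.3.3, scaled by TMM and tested with edgeR 4.0.16 (quasi-likelihood, mouse as a block), with Benjamini-Hochberg adjustment over 18958 genes. Log2 CPM used a prior count of 2. Standard errors and intervals were derived from the F statistic. They reflect how the difference between eyes varied over the mice, as the block removes differences in level between mice. The labels give 1 treated and 1 control library the same number, which was taken as the animal, following the paired design of the study. The correlation between eyes after removal of group means ranged from -0.37 in mouse 6 to 0.64 in mouse 3. It was also below 0 in mice 2, 4, 5 and 7, so it does not by itself show the pairing. Alternatives were no block, DESeq2 1.42.0, limma 3.58.1 (voom with sample weights), RLE or upper-quartile scaling, no count filter or a minimum of 10 counts, a threshold of 0.1, each mouse left out, and a covariate of the mean level of cone and rod or of macrophage and microglia markers. The tests were checked on simulated data. Named were the 10 genes, up to 4 called genes per companion list, *Sqstm1*, *Hmox1* and *Nqo1*, and the 3 genes most like *Nfe2l2* and each called gene. Other genes named were chosen after their values were seen. Members and lists were chosen with earlier results of these data known.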

Additional observations from a re-analysis of the deposited data

Results flagged for a closer look

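In each group of 9 libraries, the highest and the lowest log2 CPM of each of the 10 genes were screened for a gap to the next library that, relative to the range of the group, exceeded what Dixon's test allows at the 95% level. Of 20 groups, 3 had such a library, where about 1 would by chance.

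Control replicate 8 had 2 of them. Its *Bach1* level was 5.91, against 3.06 in the next control eye, which was 60.3 CPM from 1057 counts. Its *Nfe2l2* level was 7.06, against 6.60. The third was *Nfe2l1* in the Best1-Nrf2 eye of mouse 3, at 10.16 against 7.75 in the next treated eye, from 29729 counts. The control eye of that mouse had 484 CPM, the second highest of the controls.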

How the results depend on the processing

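Each of the 10 changes was recomputed under 20 alternatives. *Nfe2l2* (1.89 to 2.85) and *Mafg* (0.34 to 1.43) stayed above 0 in all 20 and passed in 18. Both were lost with the photoreceptor covariate (1.89 and 0.34) and the macrophage covariate (2.85 and 0.95), under which 0 of the 10 genes were called. Leaving out 1 mouse gave 2 to 3 called genes, and leaving out mice 6 and 8, chosen after seeing the data, gave 4. *Keap1* passed at 0.05 in 4 alternatives (DESeq2, limma voom, without mouse 6, without mice 6 and 8), and also at the looser threshold of 0.1. The cause of these changes was not tested.

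Among the companion regulators 2 rose, against 5 with DESeq2, 5 with limma voom, 4 without mice 6 and 8, 0 with either covariate, and 2 to 4 when 1 mouse was left out. The 1 that fell became 0 with either covariate. All genes called numbered 592 higher and 214 lower, against 940 and 538 with DESeq2, 924 and 502 with limma voom, 42 and 19 with the photoreceptor covariate, 21 and 1 with the macrophage covariate, and 764 and 366 without mice 6 and 8. Leaving out 1 mouse gave 416 to 726 higher and 116 to 320 lower.

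Without the replicate block *Bach1* was at -0.02 in place of 0.59, *Mafg* passed at 1.24, and no other call among the 10 changed. With the photoreceptor covariate, *Nfe2l3* (-1.05), *Bach1* (-0.24), *Maff* (-1.75) and *Mafk* (-2.67) turned below 0. With the macrophage covariate, *Nfe2l3* (-0.17), *Maff* (-0.11), *Mafk* (-0.69) and *Cul3* (-0.11) did so and *Nfe2l1* turned above 0 (0.58). *Mafk* was also below 0 with upper-quartile scaling (-0.05) and a minimum of 10 counts (-0.01). When 1 mouse was left out, the ranges that crossed 0 were -0.38 to 0.07 for *Nfe2l1*, -0.14 to 0.48 for *Bach2*, -0.02 to 0.39 for *Maff* and -0.24 to 0.33 for *Mafk*. Without mice 6 and 8, *Nfe2l1* was at 0.01. None of these passed. The r with the *Nfe2l2* difference turned for *Nfe2l1* (-0.14), *Nfe2l3* (0.05) and *Cul3* (0.45) without mice 4 and 8, and for *Mafk* (-0.11) with upper-quartile scaling.

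Low counts limit *Maff* and *Bach2*, which had 16 to 131 and 33 to 363 counts per library. The sequencing run of each library was not given, so runs could not be compared.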
